A study of Mus musculus with 2 samples.

Results

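The cells described here were chosen as connecting tubule and principal cells of the mouse kidney, 63 of 3534 kept barcodes. Barcodes were kept if they had 300 genes or more and if mitochondrial UMIs made up 80% or less of the total, and values were expressed as UMIs per 10000 non-mitochondrial UMIs. A barcode was a member if it held Aqp2 at 5 or more (at least 2 UMIs) or Calb1 at 10 or more (at least 3 UMIs). It also had to hold Slc12a3 under 5, Slc12a1 under 5, and Slc34a1 and Lrp2 together under 25. The cells were thus chosen by measured values of these 6 genes, which are given as a description only. The CA3 library gave 30 members of 1631 kept barcodes and the vehicle library 33 of 1903. The CA3 group was labelled rhabdomyolysis with CA3, and the vehicle group rhabdomyolysis with vehicle. CA3 is known as an inhibitor of YAP1, a transcriptional co-activator of the Hippo pathway. Both libraries came from total kidney cells of C57Bl/6 female mice aged 9 weeks with the alleles Pax8.rtTA;TetO.Cre;R26.FUCCI2aR. The Pax8 promoter drives the rtTA part of this system in renal tubule cells. The series has 1 droplet 3' library per group, both with rhabdomyolysis, and the labels used here state no CA3 dose, time after injury or number of animals per library. With 1 library a group there was no test between CA3 and vehicle, and the intervals below cover counting error only.

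The connecting tubule joins the distal convoluted tubule to the collecting duct, whose principal cells follow it. Principal cells take up water through the channel Aqp2, which vasopressin moves to the apical membrane, and sodium through the epithelial sodium channel ENaC under control of aldosterone. Hsd11b2 inactivates glucocorticoid in these cells, which leaves the mineralocorticoid receptor to aldosterone. Connecting tubule cells carry calcium with the entry channel Trpv5, the calcium-binding proteins Calb1 and S100g and the exchanger Slc8a1, and are a main source of tissue kallikrein, Klk1.

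The 250 bases before the RefSeq start are shown for Aqp2, the gene of 1 gate, for Fxyd4, the gene furthest towards the Aqp2 side in the results below, and for S100g and Slc8a1, which lay furthest towards the Calb1 side with Klk1. The sequences are from RefSeq, build GRCm38.p6, read 5′ to 3′ on the gene's strand. They cover chr15:99578806-99579055 on the plus strand for Aqp2, chr6:117937336-117937585 on the minus strand for Fxyd4, chrX:162964600-162964849 on the minus strand for S100g and chr17:81738388-81738637 on the minus strand for Slc8a1. Capitals mark TATAA, the core of a TATA box, GATAA, bound by GATA factors, TGACG, the core of a cAMP response element, and AGAACA, a steroid receptor half-element, on either strand.
Aqp2: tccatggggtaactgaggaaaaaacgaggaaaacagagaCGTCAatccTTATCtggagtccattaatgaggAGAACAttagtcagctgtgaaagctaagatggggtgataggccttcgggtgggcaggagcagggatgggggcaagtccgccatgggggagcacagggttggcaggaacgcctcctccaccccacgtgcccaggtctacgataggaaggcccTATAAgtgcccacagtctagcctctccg
Fxyd4: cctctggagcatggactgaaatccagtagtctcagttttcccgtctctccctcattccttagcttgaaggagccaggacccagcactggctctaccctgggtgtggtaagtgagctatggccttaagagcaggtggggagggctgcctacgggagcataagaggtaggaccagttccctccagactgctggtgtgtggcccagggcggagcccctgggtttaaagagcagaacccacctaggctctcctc
S100g: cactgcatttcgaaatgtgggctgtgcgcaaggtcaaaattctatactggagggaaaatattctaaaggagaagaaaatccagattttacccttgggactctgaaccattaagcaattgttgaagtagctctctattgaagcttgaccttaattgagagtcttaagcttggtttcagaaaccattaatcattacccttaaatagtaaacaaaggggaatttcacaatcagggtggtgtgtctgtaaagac
Slc8a1: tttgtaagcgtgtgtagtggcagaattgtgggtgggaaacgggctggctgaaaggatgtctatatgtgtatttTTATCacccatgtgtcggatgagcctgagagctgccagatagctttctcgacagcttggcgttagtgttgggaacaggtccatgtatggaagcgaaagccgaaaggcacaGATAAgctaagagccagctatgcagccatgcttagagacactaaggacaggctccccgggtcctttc
Aqp2 held all 4 motifs, with TATAA at positions -28 to -24, and Slc8a1 held GATAA in 2 places. In Fxyd4 and S100g none of these letters occurred in this window. Of 32851 promoter windows of the same length, 22.8% held TATAA, 22.6% GATAA, 17.8% TGACG and 16.1% AGAACA. No marked motif overlapped another, and a match is a description of letters, not a site in use. Of the 24 genes named below for parting the Aqp2 and Calb1 sides, 22 had an entry in the promoter table. In the GENCODE vM21 annotation of mm10 the genes themselves span chr15:99579055-99584547 (Aqp2), chr6:117933559-117937692 (Fxyd4), chrX:162961992-162964599 (S100g) and chr17:81373105-81738377 (Slc8a1), and Calb1 lies at chr4:15881264-15908064. The GENCODE span of Fxyd4 starts further upstream than RefSeq's, so the Fxyd4 window lies inside that span.

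Members held a median of 6263 non-mitochondrial UMIs in CA3 and 12333 in vehicle, with a median of 30.6% and 25.6% mitochondrial UMIs. The kept barcodes of each library had medians of 5599 and 5644, so the members of the vehicle library were deeper than those of the CA3 library while the libraries as a whole had similar medians. No member barcode was shared between libraries, and 1 barcode in all was. The aldosterone-side genes Hsd11b2, Scnn1b, Scnn1g, Fxyd4, Aqp3, Gata3 and Tfcp2l1 had UMIs in members of both libraries, but not in every member. Fxyd4 had a UMI in 46.7% of CA3 members and 54.5% of vehicle members. Tfcp2l1 was not confined to members. It had a UMI in 86.7% and 90.9% of members, and in 79.7% and 75% of Slc12a1 gate cells. Hsd11b2 differed more, with a UMI in 90% and 93.9% of members and in 13.6% and 8.75% of Slc12a1 gate cells. Hsd11b2 was at 4251 CPM (UMIs per 1000000 non-mitochondrial UMIs) in CA3 members against 37.4 CPM in all other CA3 barcodes, and at 3959 CPM in vehicle members against 74.4 CPM in the other vehicle barcodes. Stc1, a calcium-regulating hormone, was at 52.3 CPM in CA3 members against 0.813 CPM in other CA3 barcodes, with 54.5% of its CA3 UMIs in 1 cell, and Tmem45b at 171 CPM against 2.28 CPM. Of 5161 genes tested, 268 were at least 1.5 times higher in members than in the Slc12a3 gate, the Slc12a1 gate and all other barcodes in both libraries, 5.19%. The 10 highest by the rule were Stc1, Fxyd4, Hsd11b2, Tmem45b, Aqp3, Scnn1g, Aqp4, Kif26b, Npnt and Hacd4. These come from the same cells that the rule chose, so they describe the cells and test nothing.

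Members were 1.84% of kept barcodes in CA3 (95% exact binomial interval 1.24% to 2.62%) and 1.73% in vehicle (1.20% to 2.43%), intervals that overlap. Of the barcodes that passed the Aqp2 or Calb1 gate, 78 in CA3 and 81 in vehicle, the limit on Slc12a3 removed 37 and 36. The members fell into 3 arms. Cells that passed only the Aqp2 gate numbered 5 in CA3 and 7 in vehicle, cells that passed both gates 10 and 12, and cells that passed only the Calb1 gate 15 and 14. Aqp2 only cells were thus 16.7% of members in CA3 (5.64% to 34.7%) and 21.2% in vehicle (8.98% to 38.9%). The intervals of each arm's share of cells overlapped between the libraries. The arms' shares of UMIs were less alike. Aqp2 only cells held 52460 of the 421052 non-mitochondrial UMIs of CA3 members and 195252 of the 509667 of vehicle members. Both-gate cells held 244576 and 160447, and Calb1 only cells 124016 and 153968.

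**Figure D1:**
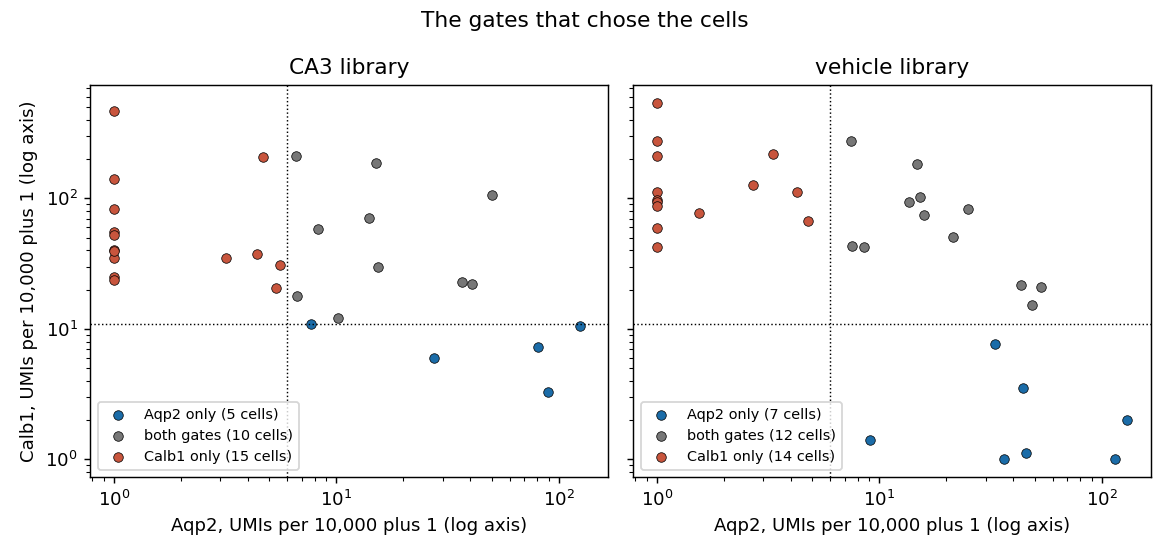
Aqp2 on the horizontal axis and Calb1 on the vertical axis, in UMIs per 10000 plus 1 on log axes, for each member of the CA3 library (left) and the vehicle library (right). Dotted lines mark the gates at 5 and 10, and points are cells by arm, with 5, 10 and 15 cells in CA3 and 7, 12 and 14 in vehicle.

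The rule fixed where the arms lie on these axes. Just inside the gates, the lowest Aqp2 member was at 5.57 per 10000 in CA3 and 6.42 in vehicle, and the lowest Calb1 member at 11.03 and 14.2. Among non-members within the excluding limits, the highest value below the Aqp2 threshold was 4.70 in CA3 and 2.77 in vehicle. The highest below the Calb1 threshold was 9.25 and 7.84. In CA3 such barcodes also reached 9.09 for Aqp2 and 18.2 for Calb1 but lacked the minimum of UMIs. Some members lay nearer the line between the arms. An Aqp2 only cell of CA3 held Calb1 at 9.97, and a Calb1 only cell of vehicle held Aqp2 at 3.78. Within the both-gate cells, Aqp2 had a median of 13.5 per 10000 in CA3 and 14.5 in vehicle, and Calb1 a median of 43.0 and 61.6.

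Some members stood apart before any comparison. One Aqp2 only cell of the CA3 library, with 34991 UMIs, held 66.7% of that arm's UMIs and also the endothelial markers Emcn (26 UMIs), Kdr (18) and Flt1 (19). The largest Aqp2 only cell of vehicle held 39.9% of its arm. Another 2 members, Calb1 only cells of CA3, had few genes (391 and 400), 1749 and 1454 UMIs of the haemoglobin gene Hbb-bs, and 0.565% and 0.522% mitochondrial UMIs. A further Calb1 only cell of CA3 had 0.284% mitochondrial UMIs, and 2 of vehicle had 3.01% and 0.480%. They held Calb1 at 465, 212 and 539 per 10000 and 0 UMIs of Scnn1b, Slc8a1 and Kcnj1. Lacking another type's markers, they stay in the values given without such members. In all, 4 members of each library held at least 3 UMIs and 10 per 10000 of another type's markers. Of them 1, 0 and 3 were in the Aqp2 only, both-gate and Calb1 only arms of CA3 and 1, 1 and 2 in those of vehicle. Proximal tubule markers (Slc34a1, Lrp2, Slc27a2, Kap, Slc5a12 and Cubn) were not part of this count. Members that held them thus also stay in the values given without another type's markers. Markers of T or NK cells, stroma, podocytes and urothelium summed to 0 or 1 UMI in both libraries, with Col1a1, Col3a1, Pdgfrb, Upk1b, Upk2 and Upk3a at 0. Summed endothelial markers were at 214 CPM in CA3 and 11.8 CPM in vehicle, and summed intercalated cell markers at 276 CPM and 233 CPM. Summed proximal tubule markers were at 173 CPM in CA3 and 489 CPM in vehicle, with up to 2730 and 3128 CPM in a single cell.

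UMIs of some of these genes were also found in the proximal tubule gate (Slc34a1 and Lrp2 together at 25 or more), whose cells should lack them. There S100g had a UMI in 56.6% of 1148 CA3 cells thinned to 2000 UMIs (85.3% unthinned) and in 47.2% of 1435 vehicle cells (76.4% unthinned), at 665 and 447 CPM. Klk1 had a UMI in 19.8% and 17.6% of thinned proximal cells (unthinned 45.1% and 36.4%). The neighbouring segments held both genes. Klk1 had a UMI in 78.6% and 68.8% of thinned members, against 79.6% and 82% of thinned Slc12a3 gate cells and 83.3% and 77.9% of thinned Slc12a1 gate cells in CA3 and vehicle (unthinned 93.3% and 87.9%, 90.3% and 92.5%, 94.9% and 88.8%). S100g had one in 85.7% and 81.2% of thinned members, against 74.1% and 68% of thinned Slc12a3 gate cells (unthinned 96.7% and 90.9%, 87.1% and 83.0%). Median depth in the Slc12a3 gate was 4072 and 7163 non-mitochondrial UMIs, and in the Slc12a1 gate 6100 and 7756. Hsd11b2 had a UMI in 85.7% of 28 thinned CA3 members and 87.5% of 32 thinned vehicle members (unthinned 90% and 93.9%), against 2.003% and 1.39% of thinned proximal cells (unthinned 5.33% and 3.50%). Fxyd4 had a UMI in 28.6% and 43.8% of thinned members (unthinned 46.7% and 54.5%), against 2.53% and 1.88% of thinned proximal cells (unthinned 7.27% and 5.56%). Median depth was 5702 and 5440 non-mitochondrial UMIs in the proximal gate.

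The water channels Aqp3 and Aqp4, the vasopressin receptor Avpr2 and Fxyd4 were higher in Aqp2 only cells than in Calb1 only cells of both libraries. Fxyd4, a regulator of the sodium pump in collecting duct, was at 4022 CPM in Aqp2 only cells against 96.8 CPM in Calb1 only cells of the CA3 library, a ratio of 41.6 (23.3 to 81.7). In vehicle it was at 4881 CPM in Aqp2 only cells against 52.0 CPM in Calb1 only cells, a ratio of 93.9 (47.5 to 218). By cell, Fxyd4 in the 5 CA3 Aqp2 only cells ran from 0 to 4830 CPM with a median of 3308, and in the 15 CA3 Calb1 only cells from 0 to 410 CPM with a median of 0. The 7 vehicle Aqp2 only cells ran from 844 to 11589 CPM with a median of 2518, and the 14 vehicle Calb1 only cells from 0 to 504 CPM with a median of 0. All vehicle Aqp2 only cells lay above every vehicle Calb1 only cell, and the CA3 arms overlapped at the low end. In CA3 a single cell, the one with endothelial markers, gave 80.1% of the Fxyd4 UMIs of its arm. With members of this kind left out the CA3 ratio was 22.6.

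Both libraries showed Aqp3, the basolateral water channel, higher in Aqp2 only cells. Its level was 3088 CPM against 113 CPM in Calb1 only cells of CA3 and 1726 CPM against 90.9 CPM in vehicle. Every Aqp2 only cell held Aqp3, at least 332 CPM in CA3 and 281 CPM in vehicle, and 2 of 15 and 2 of 14 Calb1 only cells did. Its ratio was 27.4 (15.8 to 51.2) in CA3, or 13.4 without members that held another type's markers, and 19.0 (11.2 to 35.1) in vehicle. Aqp4, the other basolateral channel, was at 324 CPM in the CA3 Aqp2 only cells and 1224 CPM in those of vehicle, and had 0 UMIs in Calb1 only cells, so that the ratio was at least 13.4 and at least 62.8 with 3 UMIs as the floor over the arm. Avpr2, the vasopressin receptor, was at 362 CPM against 16.1 CPM in CA3 and 251 CPM against 77.9 CPM in vehicle. Avpr2 overlaps Arhgap4 and L1cam on the other strand. Of 5 tested water transport and vasopressin genes (the rule's own genes left out), 3 were higher in both libraries and none was lower, where 18.6% of all 3109 tested genes were higher and 7.91% lower. In CA3 alone 37% were higher and 21.9% lower, in vehicle alone 34.8% and 15.2%, and 6.01% passed the fold in opposite directions in the libraries. With the 50 highest genes left out of the total, the counts over all genes were 377 higher and 416 lower in place of 577 and 246, and the median log2 of all tested genes was -0.04 and 0.03 in CA3 and vehicle in place of 0.24 and 0.29. Fxyd4, Aqp3, Aqp4 and Avpr2 kept their direction on this scale.

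**Figure D2:**
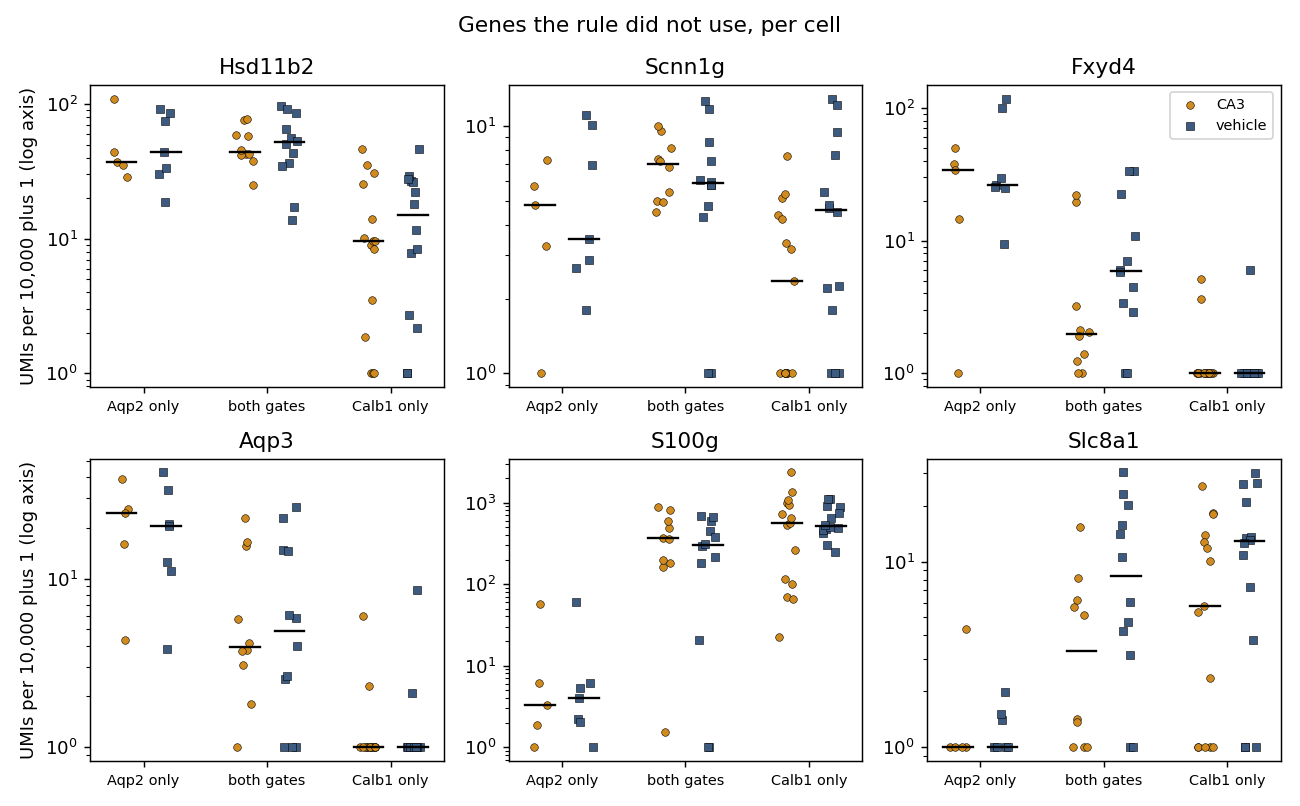
UMIs per 10000 plus 1 on a log axis for 6 genes that the rule did not use, by arm (Aqp2 only, both gates, Calb1 only), with CA3 cells as circles left of vehicle cells as squares and bars at the medians. Fxyd4 and Aqp3 have their highest medians in Aqp2 only cells and S100g and Slc8a1 in Calb1 only cells, while Hsd11b2 and Scnn1g are detected in all arms.

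Calcium transport and its regulators marked the Calb1 side. S100g, the small vitamin D-dependent calcium binder, was at 477 CPM in Aqp2 only cells against 54469 CPM in Calb1 only cells of CA3 and at 953 CPM against 54050 CPM in vehicle. In CA3 the Aqp2 only level was below that of the proximal tubule gate, 665 CPM, and in vehicle above it, 447 CPM. A single cell held 68% of the S100g UMIs of the CA3 Aqp2 only arm and 79.6% of those of the vehicle arm. Every Calb1 only cell held S100g, at least 2140 CPM in CA3 and 24864 CPM in vehicle. S100g overlaps Ctps2 on the other strand. Slc8a1, the basolateral sodium-calcium exchanger, was at 19.1 CPM against 556 CPM in CA3, a ratio of 0.03 (0.0009 to 0.20), and at 30.7 CPM against 1279 CPM in vehicle, a ratio of 0.02 (0.009 to 0.05). Pth1r, the parathyroid hormone receptor, was at 19.1 CPM against 226 CPM and at 51.2 CPM against 636 CPM. The vitamin D receptor Vdr was at 57.2 CPM against 314 CPM and at 25.6 CPM against 701 CPM, and Kl, the co-receptor klotho, at 381 CPM against 1911 CPM and at 200 CPM against 4475 CPM. With members of another type's markers left out, the CA3 ratios were 0.02 for S100g, 0.09 for Slc8a1, 0.25 for Pth1r, 0.34 for Vdr and 0.41 for Kl.

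Trpv5 was highest in the cells that passed both gates, at 290 CPM in CA3 and 224 CPM in vehicle, above the Calb1 only cells at 145 and 117 CPM and the Aqp2 only cells at 19.1 and 20.5 CPM. Of 9 tested calcium genes, 6 were lower in Aqp2 only cells in both libraries and 1 was higher. The median log2 ratio was -2.46 in CA3 and -4.49 in vehicle, beside 0.24 and 0.29 over all tested genes. Genes shared with the distal convoluted tubule followed. Of 9 tested, 6 were lower in Aqp2 only cells and none higher, among them Wnk1, at 172 CPM against 1508 CPM in CA3 and 174 CPM against 4624 CPM in vehicle, and Wnk4, at 38.1 against 274 CPM and 56.3 against 403 CPM. Wnk kinases regulate the sodium-chloride cotransporter of that tubule. Summed markers of the distal convoluted tubule, Slc12a3 included, were at 57.2 CPM in Aqp2 only, 32.7 CPM in both-gate and 169 CPM in Calb1 only cells of CA3 and at 25.6, 43.6 and 162 CPM in those of vehicle, with Pvalb at 0 in every vehicle arm. Their part in these differences was not tested.

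Klk1, tissue kallikrein, showed the steepest step in vehicle. It was at 66.6 CPM in Aqp2 only, 6631 CPM in both-gate and 53037 CPM in Calb1 only cells of vehicle. In CA3 the levels were 1201, 17561 and 37318 CPM in the same order, with 93.7% of the Aqp2 only UMIs from a single cell at 19601 CPM. That cell held Calb1 at 9.97 per 10000, just under the gate of 10, with 17 S100g UMIs and 0 Fxyd4 UMIs. Of the Klk1 UMIs of the CA3 Calb1 only cells, 49.1% were in 1 cell, and the median cell was at 6403 CPM. The CA3 ratio was 0.03 with all members and 0.09 without those of another type's markers. Fxyd2, a regulatory subunit of the sodium pump, was at 248 against 5733 CPM in CA3 and 1029 against 8930 CPM in vehicle. The proximal tubule gate held Fxyd2 at 5737 and 5935 CPM. Among the ENaC and aldosterone list, 2 of 12 tested genes were higher in Aqp2 only cells in both libraries, Fxyd4 and Hsd11b2, and 3 lower, Klk1 and Fxyd2 among them.

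The sodium channel itself did not part the arms the same way in the libraries. Scnn1b was at 362 CPM in Aqp2 only, 785 CPM in both-gate and 339 CPM in Calb1 only cells of CA3, and at 312, 667 and 292 CPM in those of vehicle. Its Aqp2 only over Calb1 only ratio was 1.07 (0.59 to 1.88) in CA3 and 1.07 (0.72 to 1.61) in vehicle, so an equal level was within the interval in both. Scnn1g had a ratio of 2.28 (1.29 to 4.01) in CA3, or 1.15 without members of another type's markers, and of 0.71 (0.48 to 1.04) in vehicle, and Scnn1a of 2.44 (1.46 to 4.06) in CA3 and 0.35 (0.20 to 0.60) in vehicle. By summed UMIs Hsd11b2 was highest in the both-gate cells, at 5491 CPM in CA3 and 5896 CPM in vehicle. The sums gave 3793 and 3985 CPM in Aqp2 only cells and 2000 and 1909 CPM in Calb1 only cells. By cell, Hsd11b2 overlapped between Aqp2 only and both-gate cells. Aqp2 only cells ran from 27.7 to 108.7 per 10000 in CA3 and from 17.7 to 90.6 in vehicle. Both-gate cells ran from 23.9 to 76.5 and from 12.8 to 96.6. Sgk1, the aldosterone-induced kinase, was at 896, 421 and 210 CPM in the CA3 arms and at 76.8, 611 and 117 CPM in the vehicle arms, in the order Aqp2 only, both and Calb1 only. Of 6 tested potassium channel genes none was higher and 2, Kcnj10 and Kcnj1, were lower in Aqp2 only cells.

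Other genes that parted the arms ran across roles. The counts here stand beside 18.6% higher and 7.91% lower over all tested genes. Of 16 tested transcription factors, 6 were higher in Aqp2 only cells in both libraries (Elf3, Pax8, Ehf, Gata2, Pax2 and Emx2) and 1, Emx1, was lower. Gata2 was at 724 against 218 CPM in CA3 and 374 against 77.9 CPM in vehicle, while Gata3 was at 477 against 137 CPM in CA3 and 328 against 247 CPM in vehicle and passed the fold in CA3 alone. Emx2 was at 229 against 24.2 CPM and 113 against 13.0 CPM, and its relative Emx1 at 38.1 against 129 CPM and 20.5 against 175 CPM. Of 17 tested junction and keratin genes, 6 were higher, among them Krt18 at 381 against 96.8 CPM and 553 against 143 CPM, and Defb1, an epithelial defensin, was lower. Of 5 osmolyte genes 3 were higher, Akr1b3, Slc6a6 and Nfat5, and Nfat5, the tonicity factor, was at 419 against 96.8 CPM and 369 against 104 CPM. Without members of another type's markers, 4 of 16 transcription factors were higher and 2 lower. Junction and keratin genes then had 4 of 17 higher, beside 14% of all tested genes. Osmolyte genes had 3 higher and 2 lower with each cell weighted alike, and also without the 50 highest genes.

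By the ranking rule, the 12 genes furthest towards the Aqp2 side were Fxyd4, Gadd45b, Aqp3, Defb29, Plet1, Adh1, Mcoln3, Aqp4, Btc, Crip1, Ptpn14 and Anxa2. Furthest towards the Calb1 side were S100g, Klk1, Slc8a1, Pth1r, Klk1b22, Sgms2, Wnk1, Fxyd2, Pcolce, Aebp1, Wnk4 and Ltc4s. In CA3 1 cell held between 64.7% and 100% of the Aqp2 only UMIs of each of the first 12, with all 19 UMIs of Mcoln3 and 93.6% of those of Gadd45b in 1 cell. Without members of another type's markers the CA3 ratio of Gadd45b was 3.87, and Defb29, Plet1, Mcoln3, Btc, Crip1, Ptpn14 and Anxa2 had at most 3 UMIs on either side in CA3, so no ratio was taken. Plet1 was at 152 against 8.06 CPM in CA3, and in vehicle at 825 CPM in Aqp2 only cells and 0 UMIs in Calb1 only cells, at least 42.3 times higher with 3 UMIs over the arm as the floor. Btc, betacellulin, was at 324 CPM against 0 UMIs in CA3 (at least 13.4 times) and 271 against 6.49 CPM in vehicle. Klk1 and Klk1b22 belong to a family of near-identical kallikrein genes, so reads may be split between them and their counts are uncertain.

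**Figure D3:**
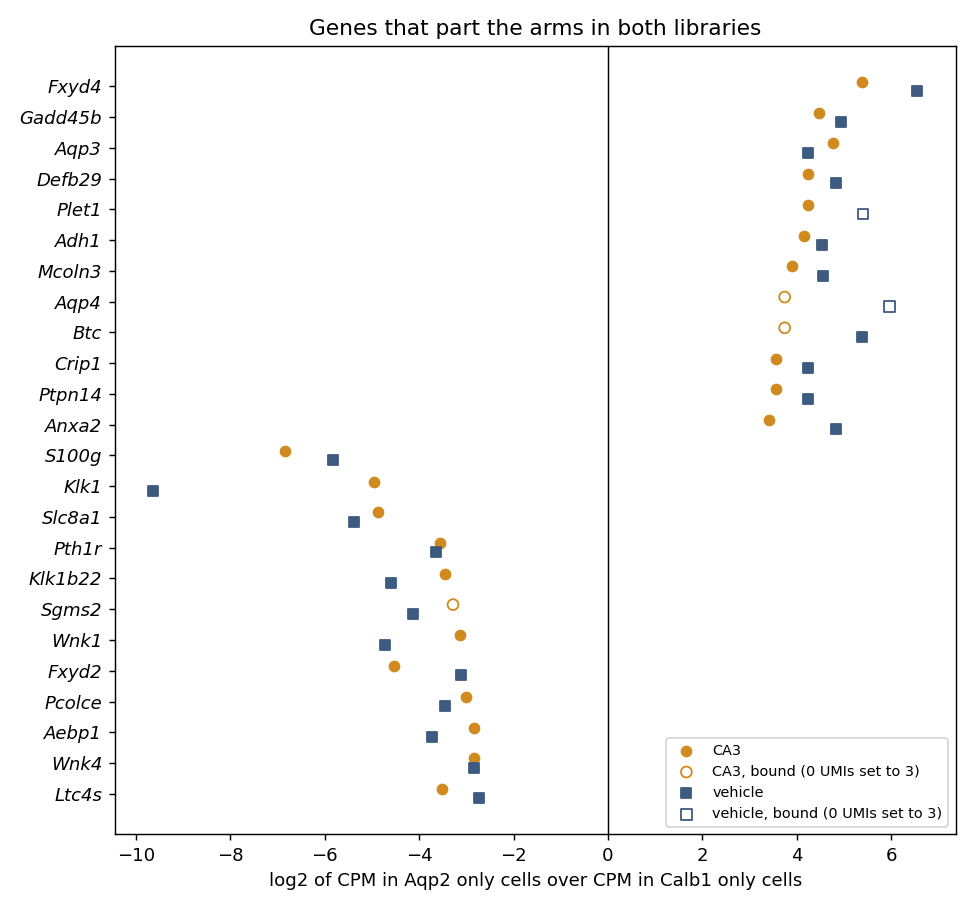
log2 of CPM in Aqp2 only cells over CPM in Calb1 only cells for the 24 named genes, CA3 as circles and vehicle as squares, with open symbols for bounds where a count of 0 was set to 3 UMIs. Every symbol of the first 12 genes lies right of 0 and of the other 12 left of 0, from -9.64 for Klk1 in vehicle to 6.55 for Fxyd4 in vehicle.

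Immediate early genes, which are induced within minutes of a stimulus, were higher on the Aqp2 side. Of 16 tested, 12 were higher in Aqp2 only cells in both libraries and none was lower, with a median log2 of 1.86 in CA3 and 2.84 in vehicle. Egr1 was at 2917 against 443 CPM in CA3 and at 1823 against 162 CPM in vehicle, and Junb at 2993 against 250 CPM and 1460 against 143 CPM. Without members of another type's markers, 10 of 15 tested genes were higher, and the CA3 ratio of Egr1 was 4.11 in place of 6.58. Aqp2 only, both-gate and Calb1 only cells had medians of 24.3%, 28.8% and 36.4% mitochondrial UMIs in CA3. In vehicle they had 10.8%, 23.8% and 36.2%. Median depths in the same order were 4401, 21955 and 4217 non-mitochondrial UMIs in CA3 and 16436, 10829 and 8360 in vehicle. The part of mitochondrial share and depth in the immediate early values was not tested. The nuclear RNA Malat1 also differed by arm. It fell into separate ranges, up to 45.5 and from 357 per 10000 in CA3 members and up to 45.3 and from 550 per 10000 in vehicle members. Cells under 100 were 1 of 5 Aqp2 only, 1 of 10 both-gate and 6 of 15 Calb1 only cells in CA3, and 1 of 7, 1 of 12 and 7 of 14 in vehicle. Such cells were 61.6% and 59.7% of the proximal tubule gate in CA3 and vehicle. Among the members with Malat1 at 100 or more, an alternative added after seeing the data, 11 of 16 immediate early genes were higher and none was lower. In these cells the summed 19 genes of the list had a median of 222 per 10000 in 4 Aqp2 only cells, 10.6 in 9 both-gate cells and 15.2 in 9 Calb1 only cells of CA3, and of 132 in 6, 19.96 in 11 and 24.9 in 7 such cells of vehicle. With Malat1 at 100 or more, 517 of 2774 tested genes were higher in Aqp2 only cells in both libraries, 18.6%, and 208 lower, 7.5%. Beyond such counts, the part of Malat1 in the other differences between the arms was not tested.

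**Figure D4:**
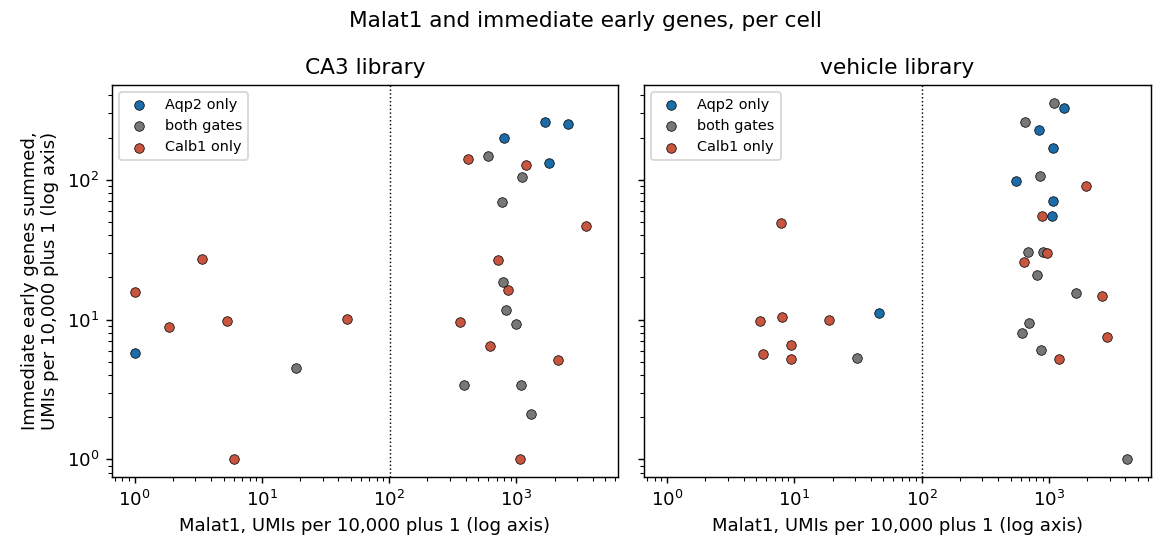
Malat1 on the horizontal axis and the summed immediate early genes on the vertical axis, in UMIs per 10000 plus 1 on log axes, for each member of CA3 (left) and vehicle (right), coloured by arm. The dotted line is at 100 Malat1 per 10000, and the Aqp2 only cells to its right lie between 54.3 and 327 on the vertical axis, before 1 is added.

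Lists of interferon and antigen presentation, Hippo and energy genes were as follows. All 5 tested interferon and antigen presentation genes were higher in Aqp2 only cells, with H2-K1 at 839 against 64.5 CPM in CA3 and 389 against 149 CPM in vehicle, and 2 of 3 were when the members with another type's markers were left out. Of 18 nuclear genes of the respiratory chain, 9 were lower and none higher, beside 7.91% of all tested genes lower. With the 50 highest genes left out of the total 16 were lower, beside 13.4%. The count was 7 without members of another type's markers, beside 5.3%, and 6 with each cell weighted alike, beside 9.04%. It was 6 in the Malat1-high cells, beside 7.5%, and 0 with both-gate cells joined to the Aqp2 only cells, beside 2.46%. Higher in Aqp2 only cells in both libraries were 4 of 4 Hippo components, 2 of 3 YAP/TAZ targets (Ptpn14 and Amotl2), 3 of 11 heat shock genes, 4 of 14 glycolysis genes, 2 of 3 prostaglandin and endothelin genes, 3 of 9 injury genes, 1 of 10 Nrf2 and haem genes, 1 of 3 intercalated cell genes, 1 of 3 cilium genes, 1 of 2 NF-kB genes and the 1 tested cell cycle gene, Ccnd1, beside 18.6% of all tested genes. Without members of another type's markers the 1 YAP/TAZ target still tested was not higher, 3 of 4 Hippo components and 2 of 14 glycolysis genes were, and 14% of all tested genes were. Hippo components were 2 of 4 with each cell weighted alike, without the 50 highest genes and in the Malat1-high cells. Lower were 1 injury gene, Spp1, 1 Nrf2 gene, Gsta4, and 1 cilium gene, Pkhd1. The largest cell of the CA3 Aqp2 only arm, which held endothelial markers, gave 66.7% of that arm's UMIs, and without members of this kind the counts over all 2831 genes then tested were 396 higher and 150 lower.

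CA3 and vehicle were compared over all members by summed UMIs, so each arm counted by its UMIs. The arms' shares of UMIs differed between the libraries, and their part in these ratios was not tested. Of 5161 tested genes, 377 were at least 1.5 times higher in CA3, 7.3%, and 622 were lower by the same fold, 12.1%. With the interval also past 1, 174 were higher (3.37%) and 313 lower (6.06%). The median log2 ratio of all tested genes was -0.09. Of the genes that describe the cells, some were near 1 and others not. Hsd11b2 was at 4251 CPM in CA3 and 3959 CPM in vehicle, a ratio of 1.07 (1.01 to 1.14), Scnn1g at 435 and 410 CPM, a ratio of 1.06 (0.86 to 1.299), and Kl at 1988 and 2229 CPM, a ratio of 0.89 (0.81 to 0.98). Within the arms Scnn1g and Kl were past 1.5-fold in opposite directions, with ratios of 1.90 and 1.91 in Aqp2 only cells and 0.59 and 0.43 in Calb1 only cells. Over all members the ratio was 1.504 (1.20 to 1.89) for Scnn1a, 1.88 (1.34 to 2.66) for Trpv5 and 0.61 (0.42 to 0.86) for Avpr2.

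The higher genes by the ranking rule were Pcbp3, Gem, Gstp1, Col27a1, Lamb2, Rhbg, Id2, Lars2, Clu and Nacc2. Col27a1, a fibrillar collagen, was at 211 CPM in CA3 and 82.4 CPM in vehicle, with UMIs in 19 of 30 and 15 of 33 cells, and its ratio of 2.57 (1.76 to 3.80) stayed past 1.5 under all 10 alternatives run. Rhbg, an ammonia transporter, was at 382 and 182 CPM, a ratio of 2.10 (1.61 to 2.73). Gstp1, a glutathione transferase whose near-identical copy Gstp2 makes its count uncertain, was at 61.8 and 13.7 CPM, a ratio of 4.50 (1.90 to 12.3). The proximal tubule gate held Gstp1 at 92.3 CPM in CA3 and 28.2 CPM in vehicle, a ratio of 3.27 (2.86 to 3.75), on the same side of 1. For Rhbg and Col27a1 the proximal ratios were 0.69 (0.36 to 1.29) and 1.14 (1.05 to 1.25). Pcbp3, an RNA-binding protein, was at 59.4 CPM in CA3 and 11.8 CPM in vehicle, and Gem, a small GTPase, at 92.6 and 23.5 CPM, with ratios of 5.04 (2.02 to 15.03) and 3.93 (2.02 to 8.25). The laminin chain Lamb2 was at 64.1 and 17.7 CPM, and Id2, an inhibitor of helix-loop-helix factors, at 539 and 275 CPM. Id2 had UMIs in fewer CA3 members, 16 of 30 against 25 of 33, and a lower median cell, 149 against 256 CPM. Rhbg was also in fewer, 19 against 25, with median cells of 159 and 146 CPM. The mitochondrial leucyl-tRNA synthetase Lars2 was at 1071 and 585 CPM and the transcriptional repressor Nacc2 at 85.5 and 29.4 CPM. Clu, the chaperone clusterin, was at 5301 CPM in CA3 and 3182 CPM in vehicle, a ratio of 1.67, while the ratio was 0.13 in Aqp2 only cells and 0.99 with each cell weighted alike.

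The lower genes were Ppp1r1a, Cryab, Marcksl1, Nme7, Tmem27, Apela, Scg5, Wnk1, Igfbp7 and Hmgn5. Ppp1r1a, an inhibitor of protein phosphatase 1, was at 16.6 CPM in CA3 and 104 CPM in vehicle, a ratio of 0.16 (0.06 to 0.35), with UMIs in 6 of 30 and 16 of 33 cells. Cryab, the small chaperone crystallin alpha B, was at 140 and 455 CPM, a ratio of 0.31 (0.23 to 0.41), and below 1 in each arm and in the Slc12a1 gate, where it was 0.19. Hmgn5, a nucleosome-binding protein, was at 40.4 and 116 CPM, in 9 of 30 and 23 of 33 cells. Igfbp7, an insulin-like growth factor binding protein, was at 1005 and 1870 CPM, a ratio of 0.54 (0.48 to 0.60). For Ppp1r1a, Igfbp7 and Hmgn5 every one of the 10 alternatives kept the ratio at or under 1 over 1.5. Marcksl1 was at 11.9 and 68.7 CPM, Tmem27 (collectrin) at 40.4 and 131 CPM, the chaperone Scg5 at 35.6 and 114 CPM and Apela, a ligand of the apelin receptor, at 290 and 665 CPM. Apela was lower in the proximal tubule gate too, with a ratio of 0.27. Nme7, which overlaps Atp1b1 on the other strand, was at 121 and 337 CPM. The proximal tubule gate held it at 76.4 and 141 CPM, a ratio of 0.54 (0.49 to 0.59), lower there too. Summed proximal tubule markers were at 173 CPM in CA3 members and 489 CPM in vehicle members. By arm they were at 95.3 and 630 CPM in Aqp2 only cells and 298 and 695 CPM in Calb1 only cells. Both-gate cells held 127 and 118 CPM. The part of proximal tubule RNA in the ratios of the lower genes was not tested.

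**Figure D5:**
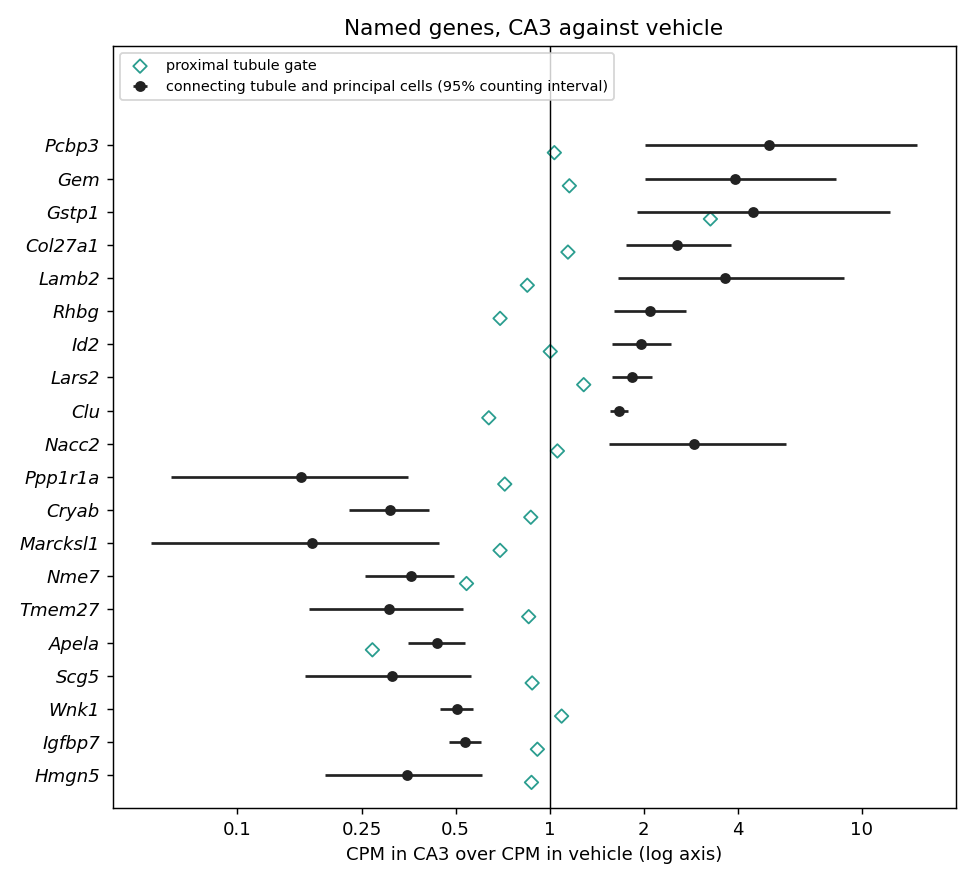
Ratio of CPM in CA3 over CPM in vehicle on a log axis for the 20 named genes, with 95% counting intervals for the members as filled points and the ratio in the proximal tubule gate as open diamonds. The points of the first 10 genes lie right of 1 and those of the others left of 1, and the diamonds of Gstp1, Nme7 and Apela lie past 1.5-fold on the same side as their points.

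For several list genes the values within an arm or another gate are given beside those over all members. Fxyd4 was at 898 CPM in CA3 members and 2335 CPM in vehicle members, a ratio of 0.38 (0.34 to 0.43), and Aqp4 at 61.8 and 481 CPM, a ratio of 0.13 (0.08 to 0.19), with 42.3% and 67.3% of the UMIs in 1 cell of each library. Within the Aqp2 only cells Fxyd4 was at 4022 and 4881 CPM, and in the proximal tubule gate at 10.8 and 30.8 CPM. Of 8 tested water and vasopressin genes, 1 was higher in CA3 and 3 lower, beside 7.3% higher and 12.1% lower of all tested genes. S100g was at 39769 CPM in CA3 and 25173 CPM in vehicle, a ratio of 1.58 (1.54 to 1.62), while the Calb1 only cells were at 54469 and 54050 CPM and the proximal tubule gate at 665 and 447 CPM. Slc8a1 was at 363 and 622 CPM, a ratio of 0.58 (0.48 to 0.71). Of 9 tested calcium genes 2 were higher and 1 lower, beside the same shares of all tested genes. Wnk1, at 912 and 1809 CPM over all members, was at 1508 and 4624 CPM in the Calb1 only cells and at 172 and 174 CPM in the Aqp2 only cells. Epcam, an epithelial adhesion molecule, was at 423 and 773 CPM, a ratio of 0.55 (0.46 to 0.65), and Krt7, a simple-epithelium keratin, at 969 and 610 CPM, a ratio of 1.59 (1.37 to 1.85).

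The other lists gave the following counts between CA3 and vehicle, to be read against 7.3% higher and 12.1% lower over all tested genes, which many of them are near. Immediate early genes had 1 of 17 higher and 5 lower (Fos at 1503 CPM in CA3 and 2353 CPM in vehicle), with a median log2 of -0.34. With the members of another type's markers left out, 9 of 16 were lower, and with each cell weighted alike 3 were higher and 2 lower. Of 9 tested YAP/TAZ targets 1 was higher (Arhgef17) and 3 lower (Ptpn14, F3 and Rbms3), median -0.24, and of 11 Hippo components 2 were lower, Mob1a and Lats1. Yap1 itself had 20 UMIs in CA3 and 25 in vehicle, a ratio of 0.97 (0.51 to 1.82), and its partner Wwtr1 21 and 21, a ratio of 1.21 (0.63 to 2.33). Both intervals reach past 1.5-fold either way, so a difference of that size lies within the counting error. Transcription factors had 2 of 18 higher and 4 lower, among them Hoxb7 at 66.5 and 167 CPM. Junction and keratin genes had 1 of 17 higher and 4 lower. Injury genes had 3 of 9 higher (Lcn2, Spp1 and Clu) and 2 lower, with 78.3% of the CA3 UMIs of Lcn2 in 1 cell. The ENaC list had 2 of 14 higher, Scnn1a and Sgk1, and 2 lower, Fxyd4 and Nr3c1. Nrf2 and haem genes had 3 of 12 higher, interferon genes 2 of 5 and prostaglandin and endothelin genes 2 of 6 with 1 lower. Potassium channels had 1 of 6 higher, distal convoluted tubule genes 1 of 11 higher and 2 lower, respiratory chain genes 1 of 18 higher, osmolyte genes 1 of 6 lower, heat shock genes 1 of 12 lower and NF-kB genes 1 of 3 each way. The 1 tested cell cycle gene, Ccnd1, was higher, and of 14 glycolysis, 4 intercalated cell and 3 cilium genes none passed the fold.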

How the data were processed

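UMI counts per gene and barcode were deposited by the authors for both libraries, made with Cell Ranger 3.0.1, per the submitters' processing notes, with gene and barcode tables beside the matrix. From these counts, 31053 mouse genes and 5 reporter features, values were computed with python 3.11.15, numpy 2.4.6, scipy 1.17.1 and pandas 2.3.3. Counts were summed over the cells of a group and expressed per 1000000 non-mitochondrial UMIs (CPM). A ratio of 2 sums has an exact conditional binomial 95% interval, and shares have exact Clopper-Pearson intervals. All intervals cover counting error only. With 1 library per group there is no replicate and no test. Genes with at least 30 UMIs summed were compared, and a ratio of 1.5 either way counts as higher or lower. A count of 0 was set to 3 UMIs. Named genes also needed 50 CPM and a UMI in 10% of cells of the higher side. Between CA3 and vehicle they also needed no cell with over 30% of that side's UMIs, and were ranked by the interval bound nearest 1 (10 each way). Between arms they were ranked by the smaller of both libraries' log2 ratios (12 each way). Genes of 22 lists could be named whatever their value. Doublets were not called. Some genes of the lists are counted but not reported here by name. Gene positions are from GENCODE vM21 (mm10). The ratio calculation was tested on simulated data. The members and lists were chosen with earlier results of these data known. Whether counting used strand is not given in the sources used here. Alternatives are in the closing section.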

Additional observations from a re-analysis of the deposited data

Results flagged for a closer look

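Among the genes of the lists and those named, 8 had a CA3 over vehicle ratio past 1.5, with its counting interval past 1, in opposite directions in the Aqp2 only and Calb1 only cells, and these differences were not tested. In Aqp2 only cells the ratio was 11.2 for Atp2b4, 1.91 for Kl and 1.90 for Scnn1g, against 0.47, 0.43 and 0.59 in Calb1 only cells. It was 0.13 for Clu, 0.52 for Fth1, 0.48 for Ftl1, 0.43 for Klf6 and 0.54 for Spp1 in Aqp2 only cells, against 1.52, 1.51, 2.91, 5.59 and 1.67 in Calb1 only cells. The CA3 Aqp2 only arm has 5 cells, with 66.7% of its UMIs in 1 of them.

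The count tables also hold reporter features outside the gene comparisons. MbmCerulean had 22 UMIs in CA3 members and 17 in vehicle members, in 11 and 9 cells. EYFP had 2 and 3 UMIs, tdimer2 2 and 0, and EGFP and hrGFPIINLS 0 in both. None of these feature names occurs in the allele label given in the opening, and whether the UMIs come from a reporter was not tested.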

How the results depend on the processing

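No paired analysis was possible because each group is 1 library. Between CA3 and vehicle the counts of 377 higher and 622 lower became 613 and 1307 with each cell weighted alike, 43 and 112 with cells thinned to 2000 UMIs (540 genes tested), 1874 and 2340 with no UMI minimum, and 59 and 99 at 100 UMIs or more. They were 226 and 396 in Aqp2 only cells (14.3% and 25% of genes tested there) and 150 and 259 in Calb1 only cells (10.9% and 18.8%), larger shares than the 7.3% and 12.1% over all members, and 167 were higher without the 3 cells with most UMIs of the gene. Between the arms the counts of 577 and 246 became 377 and 416 once the top 50 genes were dropped from the total, 41 and 48 thinned, 1434 and 375 with no minimum, 124 and 83 at 100 UMIs, and 884 and 127 with both-gate cells joined to the Aqp2 only cells. Leaving out members with another type's markers gave 150 lower. The number of genes tested also changed, to 1582 in Aqp2 only and 1378 in Calb1 only cells, 3020 without the top 3 cells, 5161 with both-gate cells joined and 2831 without other types, as it did under the minimums and thinning. It did not change with equal weight or the other total, where the cause was not tested.

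CA3 over vehicle crossed 1 with equal weight for Clu (0.99) and Trpv5 (0.98), with thinning for Apela (1.14) and S100g (0.94), and without 3 cells for Lcn2 (0.65). In Aqp2 only cells it did for Clu (0.13), Avpr2 (1.44), S100g (0.50), Trpv5 (0.93), Spp1 (0.54), Lcn2 (0.35) and Fos (1.11), and in Calb1 only cells for Scnn1a (0.84), Fxyd4 (1.86), Fos (2.55) and Pax8 (1.55). Aqp2 only over Calb1 only in CA3 crossed 1 with both-gate cells joined for Kl (1.06), Trpv5 (1.67), Vdr (1.08), Kcnj1 (1.02), Klhl3 (1.03) and Tfap2b (1.08), with equal weight for Trpv5 (1.13) and B2m (0.70), with thinning for Kcnj1 (1.11) and without other types for Cldn7 (0.59). These are all the crossings among ratios that passed 1.5-fold as reported (between the arms, in both libraries). Ratios that had not passed it crossed 1 in another 18 cases between CA3 and vehicle (Hsd11b2, Scnn1b, Scnn1g, Aqp3, Klk1 and Kl) and 16 between the arms (Scnn1a, Scnn1b, Scnn1g and Tfcp2l1). The remaining 405 and 981 kept their side of 1, of which 125 and 166 moved beyond the counting interval. The members' shares stayed within their intervals under each alternative run for them. The few cells, 5 and 7 in the Aqp2 only arms, limit every value there.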
